A study of Mus musculus with 105 samples.

Results

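Ribosome footprints were measured in single mouse oocytes arrested at metaphase of the second meiotic division (MII), the stage at which the egg is ovulated and waits for sperm. The 20 libraries described here were chosen by their labels and are all the single wild type MII oocytes of the series, which has 105 samples in all. Each library is 1 oocyte, numbered 1 to 20 as in the labels. The other groups used for comparison are 18 single wild type full-grown oocytes (FGO), which are still in prophase of the first division, and MII oocytes of the Btg4 Het genotype with 3 footprint and 2 mRNA libraries. Per the labels, the females were C57BL/6, 8 or 5 weeks old, and had been given PMSG and hCG, a pair of hormones that drive follicle growth and then ovulation. Lysates held cycloheximide, which stops ribosomes on the mRNA, and were digested with RNase I before ribosomes were pelleted through sucrose. The labels name no animals or cultures and each library is 1 cell. The stage therefore counts as 1 sample, so the values below are descriptions of these oocytes with no test, and SD is the spread between oocytes.

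During maturation from FGO to MII, the oocyte makes almost no new RNA, and protein synthesis runs from mRNAs stored during growth. Some stored mRNAs with short tails gain a long poly(A) tail and enter translation, while many growth-phase mRNAs lose their tail and leave it. The arrest itself is held by the Mos kinase pathway and cyclin B until fertilization. Footprint levels are given as FPKM, fragments scaled to gene length and to the size of the library, which is a relative level. The labels mention no spike-in, and total translation per oocyte is not measured.

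All 4 marker genes of the stage were read in every MII oocyte. Btg4, an adaptor that brings the CCR4-NOT deadenylase to maternal mRNAs, had 404 FPKM in the lowest oocyte, 2041 at the median and 3286 in the highest (mean 2056 ± 849.5, SD, n = 20). Plat, the secreted protease tissue plasminogen activator, ranged from 721 through 2219 to 3155 FPKM (2061 ± 722, SD, n = 20). Omt2a, an oocyte maturation gene, ranged from 915 through 3610.3 to 5996 FPKM, and Bcl2l10, an oocyte member of the Bcl-2 family, from 1664 through 5884 to 8557 FPKM. In the 18 FGO the highest values of these genes were 79.4, 69.6, 90.9 and 100.5 FPKM, so the stages did not overlap in any of them. Oocyte 4 was the lowest of the 20 for Btg4, Plat and Bcl2l10, and oocyte 13 for Omt2a.

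Markers of other cells were low. Of 17 follicle cell markers, 4 (Has2, Tnfaip6, Fshr and Krt8) were at 0 in all 20 oocytes, and the whole list held 0.019% to 0.065% of the summed FPKM. Only Serpine2, a secreted protease inhibitor, and Cyp19a1, the aromatase of granulosa cells, had a mean of 10 FPKM or more, at 120 ± 52.7 and 13.1 ± 10.9 (SD, n = 20). Both were at 15.2 FPKM or less in every FGO. Of 15 blood and immune cell markers, 5 (Hbb-b1, Hbb-b2, Alas2, Cd52 and Lyz1) were at 0 in all 20, and the list held 0% to 0.04%.

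The libraries differed in scale. Summed FPKM per oocyte ran from 144559 to 598538 (SD/mean 0.351). It was lowest in oocytes 13 to 16, at 144559 to 169821, followed by oocytes 1 and 3 at 240136 and 242082. FPKM values of low genes fell on steps of whole reads, which gave the relative depth, the library size behind the FPKM scale. The shallowest oocyte had 25.5% of the depth of the deepest. Over 6779 genes whose reads could be recovered, 12144 to 72595 reads were counted per oocyte (median 24223). Genes above 0 numbered 3803 to 6956 (median 4961), most in oocytes 2 and 4 with 6956 and 6259. Oocytes 2 and 4 stood apart from the other 18 in many genes, and the main counts and spreads are also given without them.

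Tcl1 and its relatives, Bpgm, Bcl2l10, Spin1 and H1foo were among the most translated genes of the MII oocyte. The 20 genes of highest mean held 21.3% to 38.4% of the summed FPKM (median 32.4%). The highest was Gm20594, at 3072 FPKM in the lowest oocyte, 21661 at the median and 76446 in the highest. RefSeq lists Mtrnr2l as a synonym of Gm20594, named after the large mitochondrial ribosomal RNA, so its values are given as uncertain. Rpl41, which codes for a very short ribosomal protein, came next with a mean of 11998 FPKM, but it was listed at 0 in oocytes 14, 15, 16 and 19 and reached 54998 in oocyte 4. Without oocytes 2 and 4 the mean of Rpl41 was 8088 ± 8358 FPKM (SD, n = 18).

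Tcl1, a coactivator of the Akt kinase, was the most translated gene that was read in every oocyte apart from Gm20594. Its values ran from 2382 through 10502 to 16265 FPKM, with a mean of 8979 ± 4085 (SD, n = 20). The 6 members of the Tcl1 family were all above 0 in all 20 oocytes. Tcl1b1 had a mean of 4667 ± 2079 FPKM, Tcl1b2 of 1866 ± 899, and Tcl1b3 of 1196 ± 565 (SD, n = 20). The family held 1.24% to 6.79% of the summed FPKM (median 5.49%), against 0.0044% to 0.087% in the 18 FGO. The members are similar in sequence, so the split of reads among Tcl1b1 to Tcl1b5 is uncertain.

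Genes of metabolism and chromatin followed. Bpgm, the enzyme that makes 2,3-bisphosphoglycerate, ranged from 2698 through 6532 to 14462 FPKM. Spin1, a spindle-associated reader of histone methylation, ranged from 1791 through 5495 to 11563 FPKM. H1foo, the linker histone of oocytes, ranged from 1642 through 4462 to 7182 FPKM, and AU022751, also called Ezhip, an inhibitor of the Polycomb methyltransferase, from 528 through 2939 to 5665. Slbp, which binds the stem-loop of histone mRNAs, ranged from 982 through 2755 to 4659 FPKM. Pttg1, the securin that holds separase inactive, ranged from 501 through 2192 to 4269 FPKM, and from 266 to 3462 in the FGO. In 13 of the 20 genes every MII oocyte was above the highest FGO. The 7 in which the stages overlapped were Gm20594, Rpl41, Bpgm, H1foo, Mphosph6, Smco4 and Pttg1.

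Several of the 20 are genes known mainly from oocytes. Rfpl4, a RING finger protein, had a mean of 4663 ± 2566 FPKM, Oosp1, an oocyte secreted protein, 4397 ± 1825, and Omt2b 3924 ± 1717 (SD, n = 20). Obox1, a homeobox gene of the oocyte, had 3503 ± 1559 FPKM and Zbed3, a member of the subcortical maternal complex, 3604 ± 1721 (SD, n = 20). E330034G19Rik had 3601 ± 1475, Mphosph6, a cofactor of the RNA exosome, 3613 ± 1578, and Smco4, a small membrane protein, 2575 ± 1624 FPKM (SD, n = 20). Smco4 was the most uneven of these, from 205 FPKM in oocyte 15 to 5603 in oocyte 7. Oocyte 4 was the lowest of the 20 in 10 of the 20 genes, and oocyte 11, which has the highest summed FPKM, was the highest in 14. The same 20 genes had the highest means without oocytes 2 and 4.

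**Figure D1:**
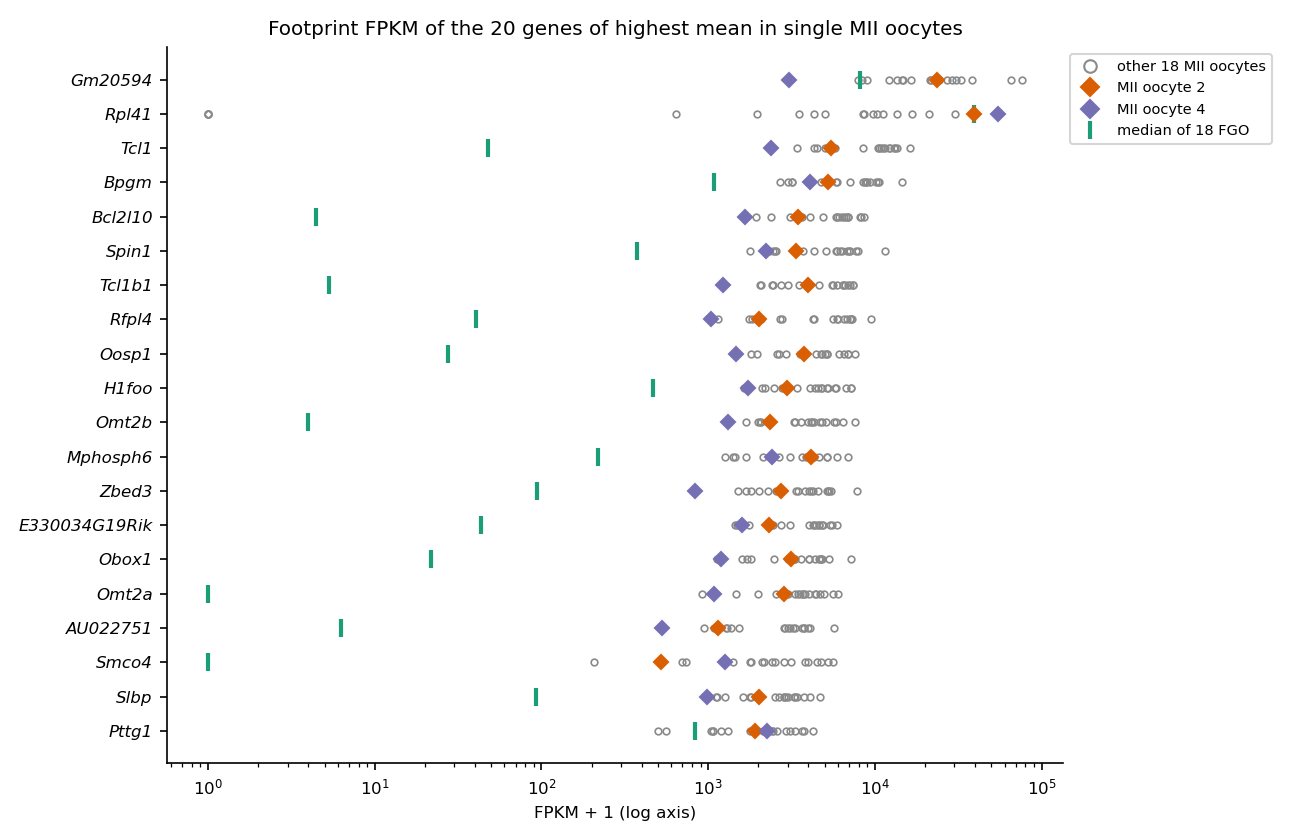
Footprint FPKM + 1 on a log axis for the 20 genes of highest mean in 20 MII oocytes, with each oocyte as a point, oocytes 2 and 4 as filled diamonds and the FGO median as a tick. Rpl41 is at 0 FPKM in 4 oocytes and highest in oocyte 4, while oocyte 4 is the lowest of the 20 in 10 genes.

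A core of genes was read in every oocyte. Of 20756 genes in the table, 1246 (6.0%) were above 0 in all 20 MII oocytes, 12740 in 1 to 19 and 6770 in none. At 1 FPKM or more in all 20 the count was 1170, and without oocytes 2 and 4 it was 1272 above 0 in all 18. The 1246 genes held 41.5% to 80.9% of an oocyte's summed FPKM, with a median of 77.8%. Oocytes 4 and 2 gave the lowest shares, 41.5% and 56.0%, and the other 18 lay between 68.1% and 80.9%. The core had a median mean level of 54.5 FPKM, and 97 of its genes had a mean under 10 FPKM, down to 0.931. Of the core, 600 genes were also above 0 in all 18 FGO, while 72 had an FGO median of 0.

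Being read in every oocyte went with level. Of the 2723 genes with a mean of 10 FPKM or more, which are 13.1% of the table, 1149 (42.2%) were above 0 in all 20. The share was 27.8% for means of 10 to 50, 59.1% for 50 to 100, 76.7% for 100 to 500 and 91.7% above that. Of the 96 genes with a mean of 500 FPKM or more, 8 were at 0 in at least 1 oocyte, and these were named after their values were seen. They are Rpl41 (0 in 4 oocytes), Tmsb10 (0 in 10), Uqcr11 (0 in 13), Smim11 and Cops9 (0 in 6 each), and Ndufa4, Snrpg and Tsc22d1 (0 in 1 each). At the lower end, 300 genes of mean 10 or more were missing from a single oocyte, and in 159 of them that oocyte was 13, 14, 15 or 16, which have the lowest summed FPKM.

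**Figure D2:**
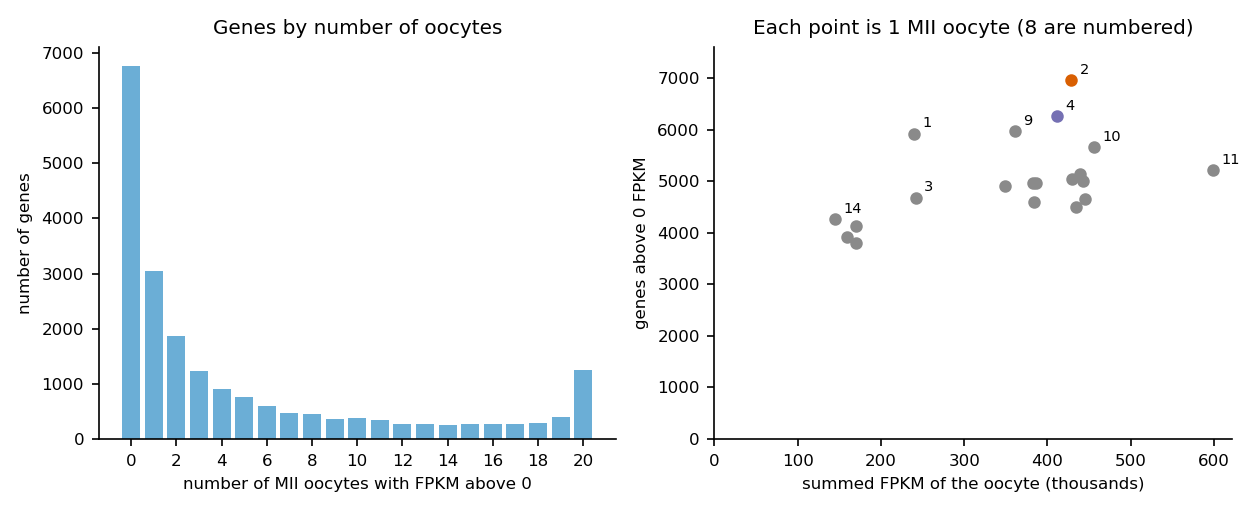
Left, the number of genes of the table by the number of MII oocytes in which FPKM is above 0, from 6770 in none to 1246 in all 20. Right, genes above 0 against summed FPKM for each MII oocyte, with oocytes 2 and 4 in colour; oocyte 2 has the most genes, 6956.

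The core differed between gene groups in how much of each list it took in. Of 20 oocyte Nlrp, Oas1 and Oog genes in the table, 17 were above 0 in every oocyte, and so were 20 of 35 spindle and checkpoint genes and 10 of 12 genes of the subcortical maternal complex. Of 85 cytosolic ribosomal protein genes, 62 had a mean of 10 FPKM or more but only Rps15a was above 0 in all 20. Of 82 respiratory chain genes, 49 reached that mean and only Atp5b and Ndufab1 were above 0 in all 20. Among genes of glycolysis and the TCA cycle, 3 of 32 were above 0 in all 20: Ldhb, the heart-type lactate dehydrogenase subunit, Cs, citrate synthase, and Sdha, a subunit of succinate dehydrogenase. These counts stand beside 6.0% of all genes, and the groups differ in level and length.

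Genes of the arrest and of the spindle were spread over a wide range of levels. Of 37 genes of metaphase II arrest and the anaphase-promoting complex (APC/C), 21 had a mean of 10 FPKM or more and 12 were above 0 in all 20. Ccnb1, cyclin B, led with 451 through 1128 to 2158 FPKM, followed by Mos, the kinase that starts the arrest pathway, with 131 through 519 to 1011. Arpp19, an inhibitor of the phosphatase that opposes Cdk1, had a mean of 226 ± 151 FPKM and Wee2, an oocyte kinase that inhibits Cdk1, 199 ± 99.7 (SD, n = 20). Anapc11, the RING subunit of the APC/C, was above 0 in only 3 oocytes, with 474 FPKM in oocyte 4. Of 35 spindle and checkpoint genes, 23 reached the mean of 10 FPKM. After Pttg1, the checkpoint kinase Bub1b had 776 ± 357 FPKM, Mad2l1 331 ± 174 and the passenger complex subunit Cdca8 212 ± 112 (SD, n = 20). Birc5, or survivin, also a passenger complex subunit, was the most uneven of the list, at 0 in 6 oocytes and 631 FPKM in oocyte 4.

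Genes of mRNA decay and of polyadenylation are given by their spread, with no test of the difference. Of 37 decay and deadenylation genes, 14 had a mean of 10 FPKM or more and 11 were above 0 in all 20, and the median SD/mean of the 14 was 0.494, against 0.813 over all 2723 genes. After Btg4 came Cnot7 and Cnot8, the catalytic deadenylases of CCR4-NOT, with 681 ± 343 and 210.2 ± 91.2 FPKM, and Dcp1a, a decapping cofactor, with 460.3 ± 183 (SD, n = 20). Their FGO medians were 2.43, 1.71 and 1.46 FPKM. Of 42 polyadenylation and translational control genes, 21 reached the mean and 12 were above 0 in all 20, with a median SD/mean of 0.764. Over the other 18 oocytes the medians of the same genes were 0.462 for decay and 0.675 for polyadenylation. Oocytes 2 and 4 were both above the other 18 in 1 of the 14 and 8 of the 21, beside 8.96% of all 2723 genes. With the minimum of 10 FPKM set on the other 18, these were 1 of 13 and 6 of 19, beside 6.3% of 2571. Both oocytes were below the other 18 in 0 of the 14 and 1 of the 21. Eif4e, the cap-binding protein, had 155 ± 113 FPKM, Pabpn1l, a nuclear-type poly(A) binding protein of oocytes, 154 ± 92.3, Dazl, an RNA-binding activator of translation, 146 ± 63.5, and Zar1, a binder of stored mRNAs, 123 ± 108 (SD, n = 20).

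Genes that act after fertilization were also on ribosomes. Of 34 maternal chromatin and reprogramming genes, 24 reached a mean of 10 FPKM, and the list held 1.65% to 3.71% of the summed FPKM (median 3.27%). H3f3b, which codes for the replacement histone variant of H3, had 1719 ± 866 FPKM and Dppa3, the protector of maternal DNA methylation also called Stella, 879 ± 383 (SD, n = 20). Of 27 genes of replication licensing for the first S phase, 18 reached the mean and 13 were above 0 in all 20. Pcna, the replication clamp, had 366 ± 155 FPKM, Orc6 287 ± 144, Rpa3 231 ± 147 and Gmnn, or geminin, which holds licensing off, 150.4 ± 106 (SD, n = 20). Bcl2l10 was alone in its family at this level: of 16 Bcl-2 family genes, the others with a mean of 10 FPKM or more were Bcl2l11 at 49.1 and Pmaip1 at 10.5, above 0 in 7 and 3 oocytes.

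The spread between oocytes was described for the 2723 genes with a mean of 10 FPKM or more as SD/mean over the 20 oocytes. Genes just above that minimum were Rps3a1, Rnf139, Sh3yl1, Erich5 and Phf14, with means of 10.004 to 10.037 FPKM and SD/mean of 0.680 to 1.206. Genes just below it were BC055324, Ndufs5, Fnta, Sirt1 and Shc1, with means of 9.991 to 9.999 FPKM and SD/mean of 0.755 to 2.57. The median SD/mean was 0.813, and 0.762 over the other 18 oocytes for the same genes. It fell with level, from 0.943 for means of 10 to 50 FPKM to 0.504 for means of 500 or more. Over the other 18, with classes set on their own mean, these medians were 0.856 and 0.474. Sampling of reads adds to the spread: in 1636 genes with recovered reads, the observed SD/mean was 2.15 times that of counting alone at the median, and 184 of them were under 1.5 times. With each oocyte rescaled to the same summed FPKM, the median was 1.78 times and 434 genes were under 1.5 times. The counting value covers sampling error only, since reads without molecular identifiers are not independent molecules.

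**Figure D3:**
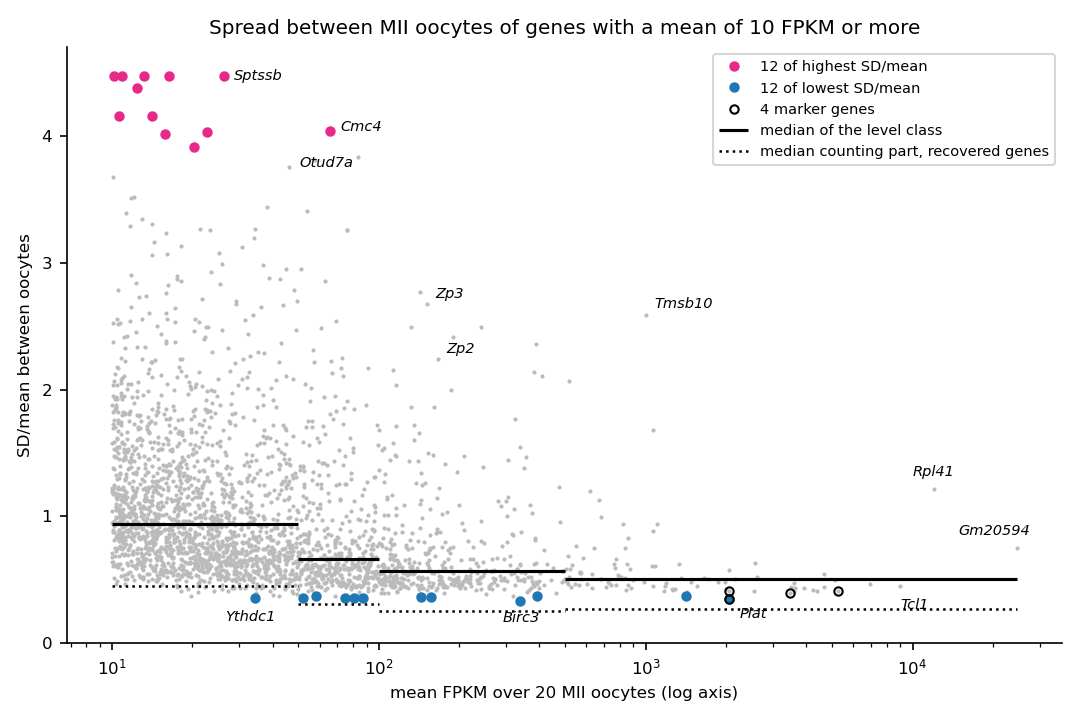
SD/mean between the 20 MII oocytes against mean FPKM (log axis) for the 2723 genes with a mean of 10 FPKM or more, with the genes of highest and lowest spread and the markers in colour. Solid lines give the median per level class, from 0.943 down to 0.504, and dotted lines the median SD/mean of counting alone in genes with recovered reads. The recovered genes were more uneven than their level class.

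The most even genes stood close to the spread of the libraries themselves. Birc3, a ubiquitin ligase that inhibits apoptosis, had the lowest SD/mean, 0.332, with 151 FPKM in the lowest oocyte, 353 at the median and 542 in the highest. Plat was second with 0.350. Next came Asf1a, a histone chaperone (0.354, mean 87.3 FPKM), Rnmt, the mRNA cap methyltransferase (0.355, mean 74.7), and Usp9x, a deubiquitinase (0.358, mean 80.7). The remaining genes of the 12 lowest were Edc4, a scaffold of decapping, Ythdc1, a nuclear reader of methylated adenosine, the histone chaperone Nap1l1, Nlrp4f, the RNA polymerase II subunit Polr2c, the ubiquitin-conjugating enzyme Ube2d3, and Baiap2l1, which bends membranes at actin-rich sites. All 12 were above 0 in every oocyte and had SD/mean of at most 0.375. Reads could be recovered for Asf1a alone, where 10.3 reads per oocyte give a counting SD/mean of 0.336, so its spread was 1.05 times that of counting.

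These lowest values stand beside the SD/mean of the summed FPKM, 0.351. When each oocyte was rescaled to the same summed FPKM, the lowest SD/mean was 0.185, in Nlrp4f, and only this gene was among the 12 lowest on both scales. The other 11 on the rescaled values were Gdf9, an oocyte growth factor (0.196), Cecr2, Ddb1, Nlrp4b, the splicing factor Sf3b1, Ncoa4, Bpgm, Mphosph6, the helicase Eif4a1, Oas1d and the kinesin Cenpe (0.216). Bpgm went from 0.468 as deposited to 0.210 and Tcl1 from 0.455 to 0.282, while Ythdc1 went up from 0.358 to 0.424 and Baiap2l1 from 0.375 to 0.394. Of the 100 most even genes as deposited, 40 were among the 100 most even after rescaling. Which genes are called most even therefore depends on the scale, and the labels give no spike-in that would set it.

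The genes of highest spread were read in very few oocytes. SD/mean reaches 4.47 when 1 of 20 oocytes holds all of a gene's signal, and 5 genes were at that limit. Sptssb, a small subunit of serine palmitoyltransferase, had 524 FPKM in oocyte 3, Gng4, a G protein gamma subunit, 326 in oocyte 1, Cox8c, a testis-type cytochrome oxidase subunit, 263 in oocyte 11, Wfdc15a 219 in oocyte 12, and Cnpy1 204 in oocyte 9. Each was listed at 0 in the other 19 oocytes. Oprd1, the delta opioid receptor, had 243 FPKM in oocyte 4 and 5.16 in 1 other oocyte. Mrpl57, Uxt, Cmc4, Erp27, Aamdc and Dbndd1 completed the 12, with SD/mean of 3.92 to 4.16 and values above 0 in 2 to 5 oocytes. The highest of these was Cmc4, 1181 FPKM in oocyte 20 against 128 in the next. Erp27 was the only one of the 12 with recovered reads, 9.0 per oocyte on average, and its spread was 7.48 times that of counting. Without oocytes 2 and 4, 9 of these 12 genes stayed among the 12. Rescaling kept 11 of the 12 among the 12 and 90 of the 100 highest among the 100.

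Over all genes of mean 10 or more, 82 had more than 50% of their sum in 1 oocyte, and 368 were at 0 in 10 or more oocytes. Among genes above 0 in at least 10 oocytes, listed after their values were seen, the highest spread was that of Otud7a, a deubiquitinase, with 783 FPKM in oocyte 4, 39.2 in the next and a median of 3.83. Zp3, a protein of the zona pellucida, Tmsb10, an actin-binding thymosin, and Rpl5 were in the same list. Of the 100 genes of highest SD/mean, 49 had their highest value in oocyte 2 or 4. Over all 2723 genes of mean 10 or more, oocyte 2 was the highest of the 20 in 251 and oocyte 4 in 379. The minimum is on the mean of all 20, so a gene can pass it through 1 or 2 high oocytes, which also gives it a high SD/mean. Of 244 genes with both oocytes 2 and 4 above the other 18, 162 reached a mean of 10 FPKM over the other 18. The 49 therefore follow in part from the minimum. Among genes above 0 in all 20, the highest spread was in Zp2, another zona protein (SD/mean 2.24), and Ooep, a member of the subcortical maternal complex (2.14). In Zp2, oocytes 4 and 2 had 1465 and 962 FPKM, while the other 18 ran from 4.29 through 23.5 to 247.

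Oocytes 2 and 4 were set beside the other 18 gene by gene. They were chosen because earlier results of these data showed them apart, so no test is given and they are never averaged. Of the 2723 genes, 244 (8.96%) had both oocytes above the highest of the other 18, and 38 (1.4%) had both below the lowest. Among the 244, 178 had a median above 0 in the other 18, and the ratio to that median was 6.34 in oocyte 2 and 9.78 in oocyte 4 at the median gene. The 244 were picked for lying above the other 18, so a high ratio follows in part from that choice. Oocyte 4 was the higher of the pair in 193 of the 244. Across 2020 of the genes above 0 in at least 15 oocytes, the rank correlation between oocytes 2 and 4 was 0.750. It was 0.448 to 0.647 between oocyte 2 and the other 18, 0.392 to 0.612 between oocyte 4 and the other 18, and 0.531 to 0.794 among the other 18. These correlations are over genes of libraries that differ in depth.

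Among the 12 genes highest in the pair relative to the others were Zp3, Ooep, Tmsb10, Atp5k and Nobox. Zp3 had 974 FPKM in oocyte 2 and 1610.1 in oocyte 4, while the other 18 ran from 0 through 15.9 to 112. Ooep had 1868 and 3418 FPKM against 13.9 through 130 to 278 in the other 18. Tmsb10 had 5233 and 10936 FPKM, while 10 of the other 18 were at 0 and the highest was 761. In these 3 genes every one of the other 18 lay below both oocytes. Atp5k, a subunit of ATP synthase, had 1325 and 1257 FPKM against at most 152, and Pdia3, a disulfide isomerase of the endoplasmic reticulum, 114 and 205 against at most 16.2. Nobox, a homeobox regulator of oocyte growth, had 70.2 and 108 against at most 9.93. Txnl4a, a spliceosome subunit, had 88.2 and 188 against at most 10.6, and Gm813 767 and 1332 against at most 116.

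In 4 genes all of the other 18 were at 0. Micos10, of the cristae junction complex, had 227 and 460.1 FPKM in oocytes 2 and 4, and Timm9, a chaperone of mitochondrial protein import, 141 and 286. Ost4, a subunit of oligosaccharyltransferase, had 1011 and 512 FPKM, and Gm19774 carried identical values in all 20 oocytes, so these names may stand for the same reads. With the minimum of 10 FPKM set on the mean of the other 18 in place of all 20, which was added after the data were seen, 162 of the 244 remained (6.3% of 2571 genes), with Zp3, Atp5k, Tmsb10, Ooep and Gm813 again at the top.

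The levels of most of these genes in the pair lay in the range of the earlier stage. Of the 244 genes, 82 passed the minimum of 10 FPKM only through the pair, so the other 162 are described. In 118 of these 162 (72.8%) the FGO median was above the highest of the other 18 MII oocytes, against 158 of all 2571 genes with that minimum (6.15%). Both oocytes were within the lowest and highest FGO in 147 of the 162 (90.7%), against 57.6% of all 2571. Zp3 had an FGO median of 923 FPKM, Ooep of 2034, Tmsb10 of 6635 and Atp5k of 1288. The rank correlation with the 18 FGO was taken over all genes above 0 in at least 15 MII oocytes, with no minimum mean. Its median was 0.547 for oocyte 2 and 0.624 for oocyte 4, and 0.212 to 0.394 for the other 18. The labels place both oocytes in the MII group, and both held the MII markers: Btg4 was at 1567 and 404 FPKM, and the highest FGO was at 79.4.

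On the deposited scale 38 genes were low in the pair, and on values rescaled to equal sums 211 were low and 195 high. Itga9, an integrin subunit, had 3.63 and 2.94 FPKM in oocytes 2 and 4, while the other 18 ran from 20.8 through 59.1 to 110.3. Ctnnd1, a catenin of cell junctions, had 8.28 and 8.43 FPKM against 18.0 through 88.1 to 174. Klhl11, an adaptor of a ubiquitin ligase, had 2.19 and 2.22 FPKM against 6.79 through 62.4 to 579. Smim14, a small membrane protein, was the most translated of the 12 genes lowest in the pair, with 211 and 171 FPKM against 324 through 771 to 1814.5. Prkar1b, a regulatory subunit of protein kinase A, was at 0 in both oocytes and at 7.18 to 431 FPKM in the other 18. The rest of these 12 were Dse, Rbm15, Traf7, Papola, the canonical poly(A) polymerase, Ralgps2, Zc3h18 and Lysmd4, in which both oocytes were at 15.5 FPKM or less.

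In 35 of the 38 low genes (92.1%) the FGO median was below the lowest of the other 18 MII oocytes, against 722 of all 2723 genes (26.5%). The 3 exceptions, named after their values were seen, were Prkar1b, Nfatc1 and Srsf4, with FGO medians of 129, 3.79 and 22.3 FPKM. A gene can be low in the pair, or have a lower FGO median, only if it is above 0 in all of the other 18. All 38 meet this by their choice, but only 1272 genes of the whole table do. The 92.1% and 26.5% are therefore not shares of like sets, and part of their gap follows from the choice. Of the 211 low genes after rescaling, 37 were among the 38, and of the 195 high genes 185 were among the 244. Mos, of the arrest pathway, was among the 38 with 165 and 131 FPKM against 212 through 553 to 1011, and its FGO median was 12.1. Tcl1b5 was also among them, with 246 and 276 FPKM against 315 to 1802.

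**Figure D4:**
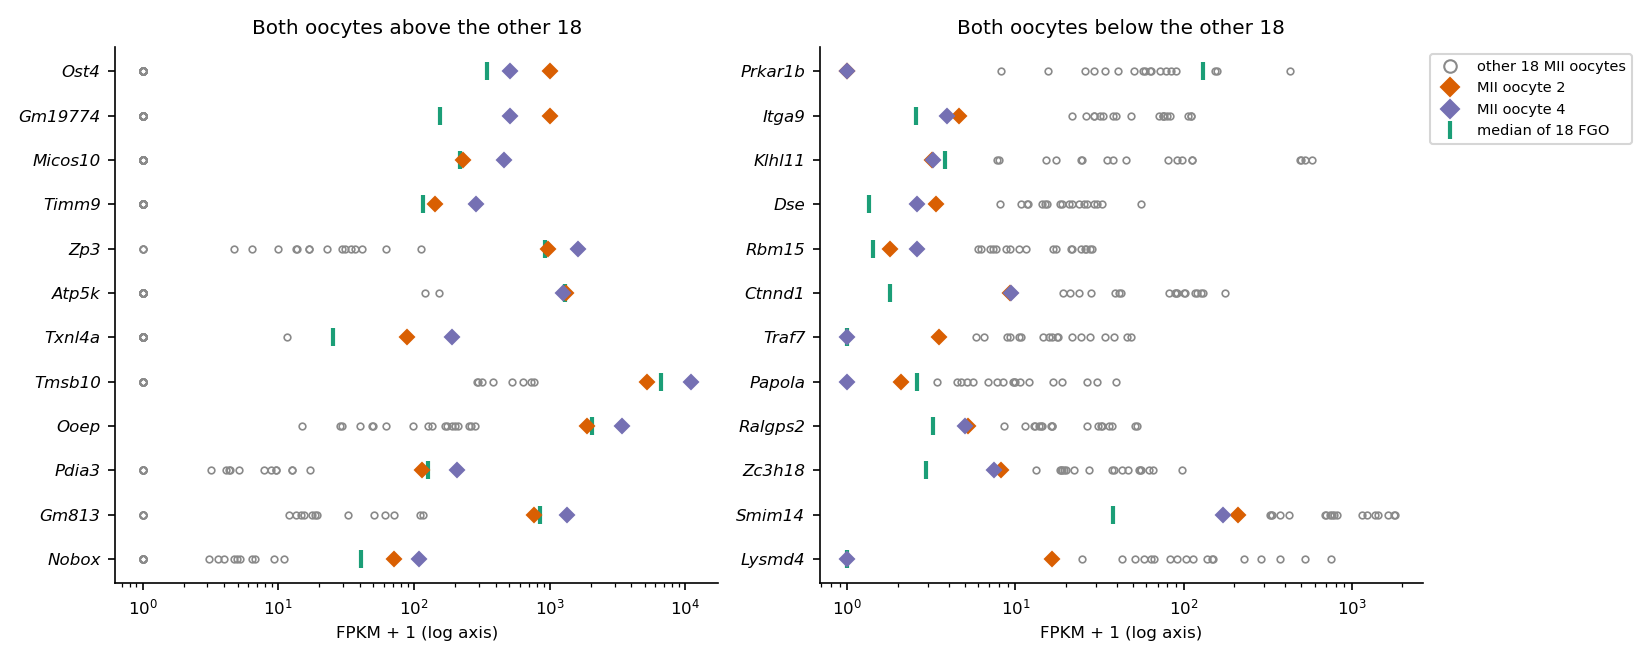
FPKM + 1 on a log axis for the 12 genes highest (left) and the 12 lowest (right) in oocytes 2 and 4 relative to the other 18, ordered by that ratio, with each oocyte as a point and the FGO median as a tick. Zp3 has 974 and 1610.1 FPKM in the pair against at most 112 in the other 18, and Itga9 3.63 and 2.94 against at least 20.8.

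Whole gene lists showed the same contrast. Cytosolic ribosomal proteins held 11.5% of the summed FPKM in oocyte 2 and 16.8% in oocyte 4, while the other 18 ran from 0.145% through 1.88% to 7.64% and the FGO from 4.08% to 31.6%. Much of this was Rpl41: without it the shares were 2.30% and 3.41%, against 0.145% through 0.705% to 1.56% in the other 18 and 3.50% to 7.26% in FGO. Of the 62 ribosomal protein genes with a mean of 10 or more, 19 had both oocytes above the other 18, among them Rpl39, Rpl5 and Rps29. The respiratory chain held 4.30% and 4.81% in oocytes 2 and 4, against 0.248% to 1.86% in the other 18 and 5.17% to 10.3% in FGO, with 16 of 49 members above. These counts stand beside 8.96% of all 2723 genes. With the minimum set on the other 18 they were 14 of 47 and 11 of 39, beside 6.3% of 2571. In both lists, no member was below the other 18 in both oocytes. A member can be below only if it is above 0 in all of these 18. Above 0 in all 20 oocytes were 1 of the 85 and 2 of the 82 members, so nothing is read from this.

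Among oocyte groups, 8 of 12 genes of the subcortical maternal complex were high in the pair: Nlrp5, Ooep, Tle6, Khdc3, Padi6, Uhrf1, Nlrp9a and Nlrp9b. All 12 also pass the minimum over the other 18, and the count stands beside 8.96% of all 2723 genes and 6.3% of 2571 with that minimum. Padi6, a peptidylarginine deiminase of the cytoplasmic lattices, had 1585 and 2302 FPKM against 35.8 through 146 to 327. Zbed3, of the same list, was at 2750 and 835 FPKM, and oocyte 4 was the lowest of the 20. The zona genes Zp1, Zp2 and Zp3 and the sperm receptor Izumo1r were above in both. So were Cpeb1, which binds the cytoplasmic polyadenylation element, Zar1, Ybx2 and Eif4e1b, all of stored mRNA particles. In the fertilization and egg activation list, 5 of 11 members with a mean of 10 FPKM or more were above and 1, Itga9, was below. In the polyadenylation list 8 of 21 were above and 1, Papola, was below. Of 27 cytoskeleton and cortex genes, Actb, Actg1, Pfn1, Tmsb10, Tubb2b, Tubb4b and Cdc42 were above. These are 7 of the 20 with a mean of 10 FPKM or more, beside the same 8.96%, and 6 of 19 with the minimum on the other 18, beside 6.3%. The list held 1.63% and 3.25% against 0.185% to 0.579%.

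By share of the summed FPKM, 9 of the 23 gene lists were lower in both oocytes of the pair than in all of the other 18, 5 were higher in both and 9 were neither. The Tcl1 family held 3.08% in oocyte 2 and 1.24% in oocyte 4, against 4.00% to 6.79% in the other 18. The maternal mRNA decay list held 0.734% and 0.342% against 0.889% to 1.53%, and its FGO range was 0.032% to 0.223%. Chromatin and reprogramming genes held 2.01% and 1.65% against 2.85% to 3.71%, Obox and other homeobox genes 1.30% and 0.572% against 1.53% to 2.25%, and the Bcl-2 family 0.936% and 0.418% against 1.16% to 2.35%. In each of these 5 lists oocyte 2 lay between oocyte 4 and the other 18, and both lay above every FGO. The MII and oocyte identity markers held 3.88% and 2.38% against 4.92% to 7.79%, and the oocyte secreted and Omt2 genes 3.56% and 2.49% against 3.61% to 5.85%. Their FGO ranges were 0.776% to 2.57% and 0.841% to 3.06%. In both lists oocyte 4 lay within the FGO range and oocyte 2 above it. Shares within an oocyte sum to 100%, so a list that holds more leaves less for the others. The metaphase II arrest list held 0.585% and 0.638% against 0.654% to 1.18%, and both oocytes lay within its FGO range of 0.222% to 0.655%.

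**Figure D5:**
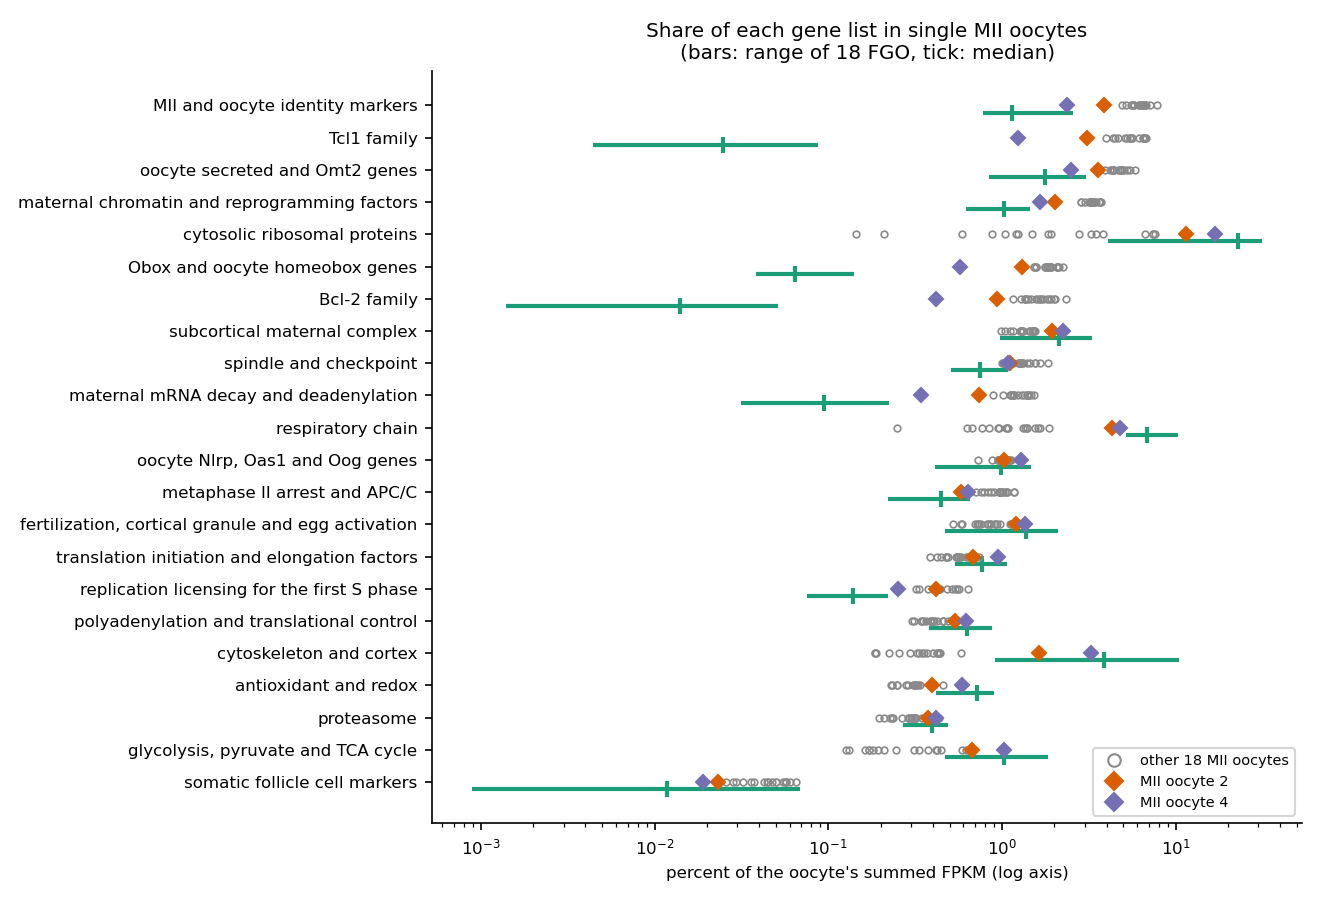
Share of each gene list in the summed FPKM of single MII oocytes (percent, log axis), with oocytes 2 and 4 as diamonds and the FGO range and median as a bar and tick. Ribosomal proteins reach 11.5% and 16.8% in the pair, and the Tcl1 family is at 3.08% and 1.24%.

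Depth and cell mixture were looked at beside this contrast. Oocyte 2 had 68.9% and oocyte 4 34.0% of the deepest library's relative depth, and the other 18 ranged from 25.5% to 100%. Recovered reads numbered 72595 in oocyte 2, the most of the 20, and 36224 in oocyte 4, against 12144 to 58957 in the other 18. The order by recovered reads thus differed from that by relative depth, where oocyte 1 was the deepest. Follicle cell markers held 0.023% and 0.019% of the summed FPKM in the pair against 0.026% to 0.065% in the other 18, and Serpine2 made up most of the mean share over the 20 oocytes. Without Serpine2, left out after its values were seen, the list held 0.0042% and 0.011%, within the 0.0028% to 0.021% of the other 18. Cyp11a1, the first enzyme of steroid synthesis, was at 3.10 FPKM in oocyte 4 and at 0 in all others. Inhba, the inhibin beta A subunit, was at 0 and 7.97 in the pair against at most 10.2. Inha, the inhibin alpha subunit, was at 0 and 4.76 FPKM in the pair and at 0 in the other 18, and Gja1, connexin of the follicle, at 4.46 and 9.03 against at most 3.07. Among blood and immune markers, C1qb was at 107 FPKM in oocyte 4, and the others were at 0 in both oocytes. That list held 0% in oocyte 2 and 0.026% in oocyte 4, within the 0% to 0.040% of the other 18. The part of these markers in the contrast was not tested. Over the other 18 alone, genes with a mean of 10 FPKM or more had a median SD/mean of 0.740.

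Other readouts of MII oocytes gave a similar order of genes for footprints and a looser one for mRNA. The Btg4 Het libraries are in a table that was normalized separately, so levels are set side by side only. Across the 2723 genes, the rank correlation of the mean over the 20 oocytes with the mean of the Het footprint libraries was 0.822, and with the mean of the Het mRNA libraries 0.501. With the mean over the other 18 in place of all 20, these were 0.847 and 0.496. Of the 20 most translated genes, 18 were among the 20 highest of Het footprints and 12 among the 20 highest of Het mRNA. Tcl1 had 36954, 34884.5 and 21371 FPKM in the 3 Het footprint libraries and 4340.3 and 6278 FPKM in the 2 mRNA libraries. Zbed3 was the highest gene of Het mRNA, at 11470 and 9595 FPKM, and ranked 9 in Het footprints.

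In 3 of the 20, mRNA was low beside footprints. Smco4 had 9705, 9536 and 7682 FPKM in the Het footprint libraries and 19.8 and 7.32 FPKM in mRNA. Gm20594 had 8162, 0 and 69986 FPKM in footprints and 4.61 and 1.38 in mRNA. Rpl41 had 47000.1, 0 and 1427 FPKM in footprints and 32.8 and 60.8 in mRNA. Gm20594 and Rpl41 were thus the most uneven of the 20 in the Het footprints too. The other 17 were all among the 100 highest genes of Het mRNA.

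Poly(A) tail lengths, measured in nucleotides on full-length cDNA with 1 library each, were given for 18 of the 20 genes in FGO and 14 in MII wild type. The median over the 18 genes was 43.5 nucleotides in FGO, where all 6229 matched genes with a value had a median of 54.0. In MII wild type the median over the 14 was 68.9 nucleotides, against 47.5 over the 225 matched genes with a value. The FGO tail library is labelled SN, while the single FGO are not. H1foo went from 60.1 nucleotides in FGO to 172 in MII, Omt2a from 36.8 to 146, Bpgm from 55.8 to 119 and Tcl1 from 41.7 to 103. Rfpl4, at 38.2 and 38.9 nucleotides, and Pttg1, at 53.3 and 55.9, were the closest between the wild type stages. The Btg4 Het MII library gave a median of 105.9 nucleotides over 14 of the 20 genes, against 73.5 over 588 matched genes. There H1foo was at 151, Omt2a at 198, Bpgm at 142 and Tcl1 at 185 nucleotides. Rfpl4 was at 65.6 and Pttg1 at 67.7, both longer than in MII wild type. There is no replicate check of these lengths within a stage and genotype.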

How the data were processed

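The authors deposited FPKM for each gene, in 1 table for the single oocytes and another for the Btg4 libraries. Per the submitters' processing notes STAR 2.5.3a, Bowtie2 2.2.2, Cufflinks 2.2.1, Trim Galore 0.4.2 and cutadapt 1.14 were used, on the builds hg19 and mm9 (step and role not given in the sources). The authors' tail lengths were deposited as nucleotides, 1 value for a gene and library. Embryos and the other genotypes were not analysed here.

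Means, SD and SD/mean (n - 1) were computed over the 20 MII oocytes with pandas 2.3.3 and numpy 2.4.6 in Python 3.11.15, and plotted with matplotlib 3.10.9. Relative depth is the commonest ratio of low FPKM values between libraries, and for 186 of 190 oocyte pairs their own ratio gave the same depth (tolerance 0.001 on the log scale). A gene's reads were taken as recovered where 90% of at least 3 low values (up to 12 reads) were within 0.04 of a whole read, which held for 75.5% of 8976 genes. Recovered genes held 27.6% to 41.7% of an oocyte's summed FPKM, so no count model was used. The steps were tested on simulated data.

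Named genes are the 4 markers, the 20 of highest mean, the 12 of highest and of lowest SD/mean among genes of mean 10 FPKM or more, 5 on each side of that mean, the 12 most above and most below in oocytes 2 and 4 (ratio of FPKM + 1), and in each of 23 gene lists the 4 of highest mean and the most and least even. Other names were chosen after their values were seen. Of 515 list names, 18 were not matched to the table. The members and lists were chosen with earlier results of these data known. Alternatives were other minimum means, scalings, log scales, each oocyte left out, and both oocytes 2 and 4 left out.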

Additional observations from a re-analysis of the deposited data

How the results depend on the processing

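No paired analysis was possible because no test was made: each stage counts as 1 sample, and the numbers shared by FGO and MII labels name different cells. Counts of 5 FPKM or more in all 20 oocytes gave 826 genes in place of 1246. The median SD/mean of 0.813 became 0.971 with a minimum mean of 5 FPKM, 0.602 with 50, 0.753 with genes above 0 in at least 10 oocytes, 0.753 after rescaling to equal sums and 0.740 without oocytes 2 and 4. The number of genes went from 2723 to 927 with a minimum of 50 and to 4679 on values rescaled to equal sums, which are larger numbers. Of the 12 lowest-spread genes, 7 stayed on log2(FPKM + 1), 7 on log2(FPKM + 0.1), 1 after rescaling, 2 after median scaling and 7 without oocytes 2 and 4. Of the 12 highest, 2 stayed with a minimum of 5, 1 with 50, 0 with genes above 0 in at least 10 oocytes, and 0 on either log scale. Genes with oocytes 2 and 4 above the other 18 numbered 620 with no minimum, 82 with 50 FPKM and 162 with the minimum set on the other 18. Genes below numbered 21 with 50 FPKM and 211 after rescaling. The Tcl1 family share was 0.903% when genes over 1000 FPKM were left out, since Tcl1 and most of its relatives were then gone. The rank correlation with Het mRNA was 0.645 at a minimum of 1 FPKM. Leaving out each oocyte in turn gave 1248 to 1311 genes above 0 in all, a median SD/mean of 0.782 to 0.825 over 2652 to 2780 genes, 7 to 11 of the 12 lowest and 5 to 10 of the 12 highest, and 20 of the 20 most translated. Other causes of these shifts were not tested. Depth limits the low end: at 12144 recovered reads in oocyte 16, the fewest of the 20, a gene listed at 0 may still be translated.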

Other observations

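Among the 18 oocytes other than 2 and 4, spread was also concentrated in single oocytes. Of 2211 genes with a mean of 10 FPKM or more over these 18 and above 0 in at least 10 of them, the median SD/mean was 0.684. The highest was that of Rilpl1, a lysosome-associated binding partner of Rab GTPases, with 193 FPKM in oocyte 3, 12.5 in the next and a median of 3.32. Tnfrsf11a, the receptor RANK, was also highest in oocyte 3, at 142 FPKM against 18.1 in the next. Both were at FGO-like levels there, with FGO medians of 103 and 278 FPKM, and oocyte 2 had 313 and 374. Oocyte 3 also had the highest share of ribosomal proteins among the 18 (7.64%), most of it Rpl41: without that gene it held 0.742%, and the highest was oocyte 9 with 1.56%. Oocyte 3 had the highest median rank correlation with FGO (0.394), close to oocytes 9 (0.392) and 10 (0.381). Its median correlation with the others of the 18 was the lowest (0.620). Not all values lay toward FGO: its share of the subcortical maternal complex list, which was higher in oocytes 2 and 4, was the lowest of the 18 (0.990%). Aldh3b2, also highest of the 18 in oocyte 3, had 108 FPKM there and 106 in oocyte 5, above the highest FGO at 25.5.

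Other genes were high in 1 or 2 of these oocytes. Dclk1, a microtubule-associated kinase, had 335 FPKM in oocyte 19 and 298 in oocyte 18, with 24.1 in the next, 0 in both oocytes 2 and 4, and at most 2.88 in any FGO. Pdzd4 had 239 FPKM in oocyte 12 against 48.1 in the next, and 0 to 632 in the FGO (median 11.5). Cds2, which makes the phospholipid precursor CDP-diacylglycerol, had 235 FPKM in oocyte 20 against 61.0, and its spread over all 20 was 9.32 times that of counting. H2afz, a histone variant, had 572 FPKM in oocyte 7 against 147 in the next. These genes were listed after their values were seen. Hist1h2br and Hjurp were in the same list, but with medians of 0.020 and 0.0016 FPKM, so their values are given as uncertain.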
